A study of Mus musculus with 22 samples.

Results

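The genes described here are 8 mouse genes with which astrocytes handle water, potassium, bicarbonate and coupling to neighbouring cells. They were chosen by their symbols from the 24060 gene rows of the deposited count tables, namely Aqp4, Dag1, Kcnj10, Kcnj16, Atp1b2, Gja1, Gjb6 and Slc4a4. All 8 passed the low-count filter in every comparison. Astrocytes take up the potassium that active neurons release, pass it and small solutes from cell to cell through gap junctions, and exchange water at endfeet, the processes that wrap blood vessels. Altered levels and placement of these channels and transporters are known in many lesions of the central nervous system. STAT3 is a transcription factor that astrocytes need for their usual scar-forming response to injury.

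RNA was sequenced from spinal cord of 11 young adult female mice in which Cre, driven by a mouse Gfap promoter (mGFAP-Cre), switches on a hemagglutinin (HA) tag on ribosomes (RiboTag). The HA immunoprecipitate (HA IP) is enriched for RNA bound to ribosomes of cells with Cre activity, and the flow-through is the RNA that was not pulled down. The STAT3-CKO SCI group (3 mice, mGFAP-Cre-RiboTag with STAT3-LoxP) and the WT SCI group (4 mice, mGFAP-Cre-RiboTag) had a severe crush spinal cord injury (SCI) at thoracic level 10 and were sampled 14 days later over the central 3 mm of the lesion. The WT uninjured group (4 mice, mGFAP-Cre-RiboTag) had no injury. Every mouse gave 1 HA IP and 1 flow-through library, so all groups carry Cre and the tag. STAT3-CKO mice without injury were not analysed here, so an effect of the deletion in intact cord cannot be separated from its effect after injury.

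Total counts were between 31292491 and 59337089 per HA IP library and between 3898755 and 11242654 per flow-through library. The ribosomal RNA row Rn45s took 52.2% to 89.2% of HA IP counts in STAT3-CKO SCI, 89.0% to 96.2% in WT SCI and 12.6% to 26.7% in WT uninjured libraries, and 49.95% to 88.4%, 89.0% to 95.5% and 9.49% to 39.7% of flow-through counts in the same 3 groups. Injury and the Rn45s share cannot be told apart in these samples. Outside ribosomal rows, the WT SCI flow-through libraries held only 91626 to 615302 counts, so that 3 counts amount to 4.88 to 32.7 CPM (counts scaled to a common library size) of these. Stat3 itself was at 7.85 to 12.3 CPM in HA IP of STAT3-CKO SCI and at 26.3 to 66.1 CPM in HA IP of WT SCI, a difference that passed the test (adjusted p = 0.00331, edgeR quasi-likelihood test). It was at 12.2 to 15.5 CPM in HA IP of WT uninjured cord. CPM of genes here are relative to library sizes scaled with TMM, a normalization on the bulk of genes, separately in each fraction. HA IP and flow-through CPM therefore stand on different scales. The CPM of 3 counts given above are relative to counts outside ribosomal rows without TMM, so they cannot be set against the CPM of genes.

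The astrocyte label of the HA IP was checked against 8 other astrocyte genes, all of which were higher in HA IP than in flow-through of uninjured cord. By the edgeR test, Slc1a3 (log2 fold change 0.47 ± 0.58 SE, adjusted p = 0.711) and S100b (0.71 ± 0.27, adjusted p = 0.125) did not pass in WT SCI. S100b (0.35 ± 0.36, adjusted p = 0.594) did not pass in STAT3-CKO SCI. The oligodendrocyte precursor genes Pdgfra, Olig1, Olig2 and Gpr17 were also higher in HA IP in both injured groups. Cspg4 passed in STAT3-CKO SCI but not in WT SCI. The myelin genes Mag and Cldn11 were also called higher in HA IP in both injured groups, and the rest of the 8 myelin genes did not pass. In uninjured cord, with both fractions scaled together, 5 precursor genes summed to 772 to 1285 CPM in HA IP and 266 to 397 CPM in flow-through. The 8 myelin genes summed there to 7235 to 9469 CPM in HA IP and 14264 to 16326 CPM in flow-through. The summed HA IP level of the 8 astrocyte genes was 2179 to 3391 CPM in STAT3-CKO SCI, 3742 to 6109 CPM in WT SCI and 3891 to 4561 CPM in WT uninjured cord. Gfap had a large share of this sum, with means of 522 CPM in STAT3-CKO SCI, 2291 CPM in WT SCI and 746 CPM in WT uninjured HA IP, and the list did not move one way. In WT SCI against WT uninjured cord 2 of the 8 rose (Gfap and S100b) and 2 fell, Slc1a3 (log2 fold change -2.40 ± 0.34 SE) and Aldoc (-0.95 ± 0.29), with a median of -0.39. In STAT3-CKO SCI against WT uninjured cord 1 fell, Slc1a3 (-1.17 ± 0.35), with a median of -0.40. Other cell types also left RNA in the HA IP of injured cord. The sum of 10 microglia and macrophage genes was 775 to 1049 CPM in STAT3-CKO SCI, 551 to 2028 CPM in WT SCI and 11.8 to 28.5 CPM in WT uninjured HA IP. The sum of 8 myelin genes was 3540 to 4173 CPM, 5839 to 8507 CPM and 1424 to 1876 CPM in the same groups. Neuron genes (7) summed to 127 to 304 CPM, 88.8 to 210 CPM and 383 to 689 CPM, and 5 oligodendrocyte precursor genes to 379 to 666 CPM, 445 to 596 CPM and 146 to 255 CPM. Sums of fibroblast and pericyte, Schwann cell and ependymal cell genes stayed at or under 68.0 CPM in every HA IP library, and 5 endothelial genes (Pecam1, Cldn5, Cdh5, Flt1 and Tek) at or under 3.27 CPM, with Pecam1, Cldn5 and Cdh5 at 0 in every WT SCI library. The part of these cells in the results below was not tested.

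Per kilobase of transcript, Atp1b2 was the highest of the 8 genes in HA IP in each group. In STAT3-CKO SCI the mean levels ran from Atp1b2 (382 CPM per kilobase) through Aqp4 (90.2), Kcnj10 (57.9), Slc4a4 (38.0), Gja1 (26.3), Gjb6 (20.9) and Dag1 (11.7) to Kcnj16 (10.3). In WT SCI they ran from Atp1b2 (340 CPM per kilobase) through Aqp4 (48.9), Kcnj10 (47.9), Slc4a4 (21.0), Gjb6 (16.3), Gja1 (14.4) and Dag1 (10.45) to Kcnj16 (6.98). In WT uninjured cord the order was Atp1b2 (448 CPM per kilobase), Kcnj10 (103), Aqp4 (82.8), Gjb6 (56.3), Gja1 (55.0), Slc4a4 (43.8), Kcnj16 (28.9) and Dag1 (8.47). Among neighbours in these orders, the ranges over animals of Aqp4 and Kcnj10 overlapped in every group, as did those of Gjb6 and Gja1. Those of Dag1 and Kcnj16 overlapped in both injured groups, while in uninjured cord every animal had more Kcnj16 than Dag1 per kilobase. Slc4a4 overlapped its connexin neighbour in WT SCI and in uninjured cord, and Gja1 overlapped Dag1 in WT SCI. The other neighbours lay apart.

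Levels in HA IP fell after injury for 6 of the 8 genes in WT SCI against WT uninjured cord, and for 4 of the 8 in STAT3-CKO SCI against WT uninjured cord. The share of all 14764 genes called at an adjusted p under 0.05 was 26.7% in either direction and 10.9% downward in the WT SCI comparison, and 9.78% and 2.08% in the STAT3-CKO SCI comparison. The median log2 fold change of the 8 genes was -1.08 for WT SCI and -0.53 for STAT3-CKO SCI, beside medians of 0.000166 and 0.00222 over all genes. The 6 and 4 called genes did not overlap between groups, which held with lower levels for 20.3% and 18.5% of all genes. The 2 comparisons share the 4 uninjured libraries. The test throughout was edgeR's quasi-likelihood test with Benjamini-Hochberg adjustment over all genes, and spreads within 1 fraction are between animals. In tissue samples of this kind, fewer astrocytes or fewer tagged ribosomes and less RNA of a gene per cell cannot be told apart.

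**Figure D1:**
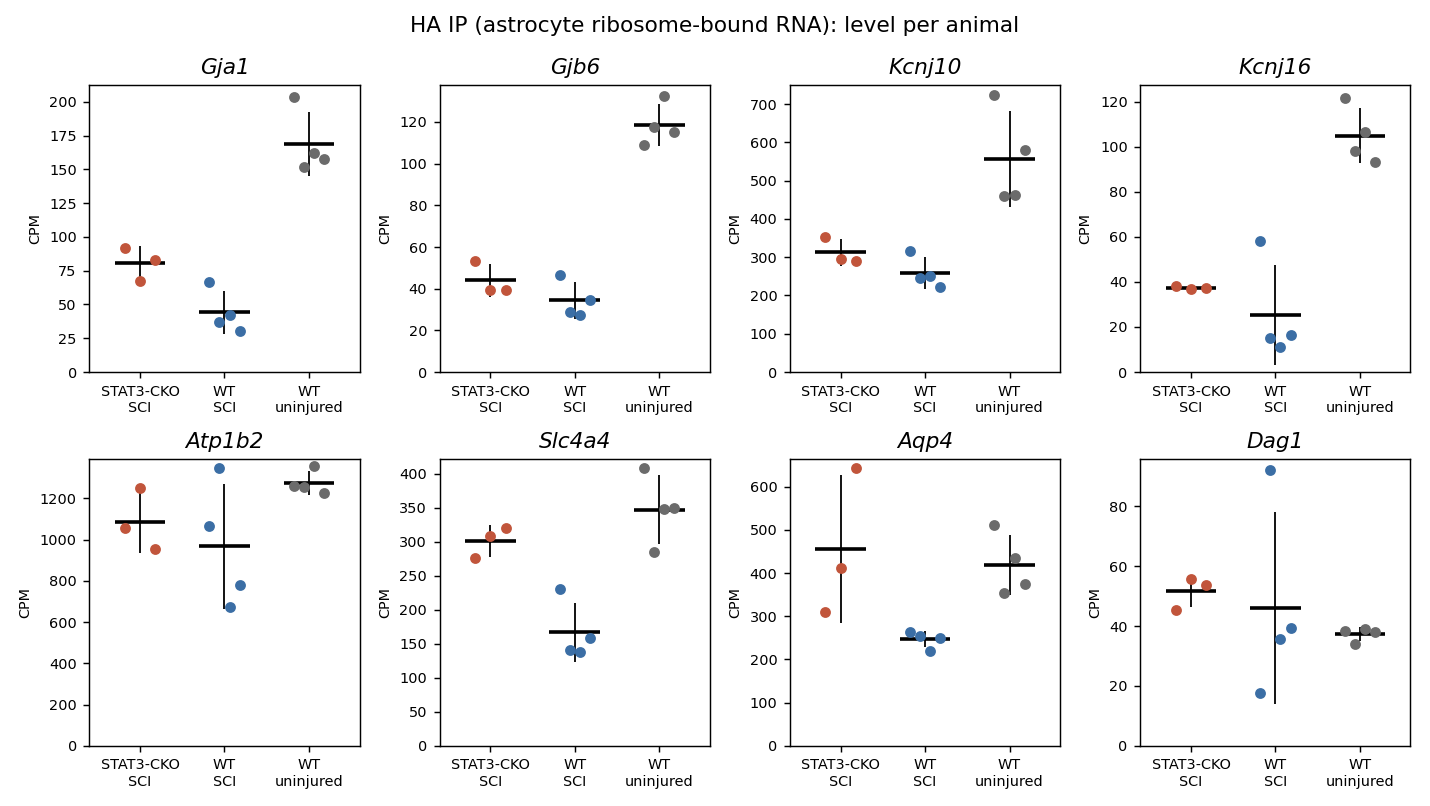
HA IP level of each gene in CPM (linear axis from 0) by animal, for STAT3-CKO SCI (n = 3), WT SCI (n = 4) and WT uninjured cord (n = 4), with a bar at the mean and a line of ± 1 SD. Gja1, Gjb6, Kcnj10 and Kcnj16 lie below every uninjured animal in all injured animals, while Aqp4 and Slc4a4 do so in WT SCI but overlap the uninjured animals in STAT3-CKO SCI.

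Gja1 and Gjb6 encode connexin 43 and connexin 30, the channel proteins of astrocyte gap junctions. Gja1 lies at chr10:56377330-56402513 (plus strand) and Gjb6 at chr14:57123303-57133611 (minus strand) of GRCm38. Their promoters, from 250 bases before to 50 after the start site, are shown because these partner genes moved alike in HA IP after injury and because STAT3 was deleted in 1 group. The 1 of 4 Kcnj16 promoter windows that holds the motif searched follows them, as the other gene with a fall of similar size. The other Kcnj16 windows do not hold it. They are RefSeq sequences of build GRCm38.p6, 5′ to 3′ on the gene's strand. Capitals mark the sole match among these 3 to TTCNNNGAA, the core spacing of STAT binding sites, which reads the same on both strands.
Gja1 promoter, chr10:56377050-56377349, plus: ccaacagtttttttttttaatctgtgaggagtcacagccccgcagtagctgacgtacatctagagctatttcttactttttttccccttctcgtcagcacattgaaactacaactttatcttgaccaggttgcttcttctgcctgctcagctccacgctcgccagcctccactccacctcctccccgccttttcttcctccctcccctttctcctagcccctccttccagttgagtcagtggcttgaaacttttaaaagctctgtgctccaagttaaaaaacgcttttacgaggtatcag
Gjb6 promoter, chr14:57133562-57133861, minus: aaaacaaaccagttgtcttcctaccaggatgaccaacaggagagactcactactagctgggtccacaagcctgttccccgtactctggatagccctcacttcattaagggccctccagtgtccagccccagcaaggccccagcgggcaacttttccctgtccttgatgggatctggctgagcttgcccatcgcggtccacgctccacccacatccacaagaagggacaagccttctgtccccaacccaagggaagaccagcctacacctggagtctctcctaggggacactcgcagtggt
Kcnj16 promoter, chr11:110967783-110968082, plus: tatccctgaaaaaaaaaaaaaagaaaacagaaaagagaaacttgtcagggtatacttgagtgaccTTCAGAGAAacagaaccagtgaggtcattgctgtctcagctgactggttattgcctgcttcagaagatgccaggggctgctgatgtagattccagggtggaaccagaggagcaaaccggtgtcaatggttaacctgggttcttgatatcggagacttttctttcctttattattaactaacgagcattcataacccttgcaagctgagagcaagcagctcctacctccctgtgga
RefSeq entries were at hand for 6 of the 8 genes, with 11 promoter windows in all. The motif stood in 1 of these 11 windows, starting at position -185 from the Kcnj16 start site, and in 2726 of 32851 promoters of this length (8.30%). A match in a window is a description of its letters and was not related to binding.

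Gja1 in HA IP was at 92.1, 67.4 and 83.1 CPM in the 3 STAT3-CKO SCI mice, at 66.5, 37.2, 42.5 and 30.1 CPM in the 4 WT SCI mice, and at 204, 151, 162 and 158 CPM in the 4 WT uninjured mice. Every injured animal was below every uninjured one, and every STAT3-CKO SCI animal was above every WT SCI animal, the closest pair being 67.4 and 66.5 CPM. Against uninjured cord Gja1 was 3.86-fold lower in WT SCI (log2 fold change -1.95 ± 0.27 SE, adjusted p = 3.03e-05) and 2.09-fold lower in STAT3-CKO SCI (-1.06 ± 0.28, adjusted p = 0.0203). The STAT3-CKO SCI call was lost without WT uninjured animal 42 (adjusted p = 0.0668) or without STAT3-CKO SCI animal 531 (adjusted p = 0.111).

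Gjb6 was at 53.0, 39.5 and 39.4 CPM in STAT3-CKO SCI, at 46.6, 28.8, 27.4 and 34.6 CPM in WT SCI, and at 109, 117, 132 and 115 CPM in WT uninjured HA IP. The injured groups overlapped each other and both lay below all uninjured animals. Gjb6 was 3.47-fold lower in WT SCI (log2 fold change -1.79 ± 0.25 SE, adjusted p = 3.23e-05) and 2.70-fold lower in STAT3-CKO SCI (-1.43 ± 0.27, adjusted p = 0.00124). It was the single gene of the 8 whose fall in STAT3-CKO SCI kept its call with any 1 library left out, with another scaling, with no low-count filter, with DESeq2 and after thinning to equal depth.

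Kcnj10 and Kcnj16 encode the inward rectifier potassium channels Kir4.1 and Kir5.1, which can form a channel together, and Kir4.1 carries most of the resting potassium conductance of astrocytes. Kcnj10 lies at chr1:172341210-172374085 (plus) and Kcnj16 at chr11:110968033-111027968 (plus). Kcnj16 fell the most of the 8 genes in WT SCI. Its HA IP level was 38.2, 36.7 and 37.2 CPM in STAT3-CKO SCI, 58.3, 15.3, 10.99 and 16.6 CPM in WT SCI, and 121, 98.1, 106 and 93.4 CPM in WT uninjured cord. WT SCI animal 9935 stood far above the other WT SCI animals, and above the STAT3-CKO SCI animals, which lay close together. Kcnj16 was 4.24-fold lower in WT SCI (log2 fold change -2.09 ± 0.39 SE, adjusted p = 0.000696) and 2.80-fold lower in STAT3-CKO SCI (-1.49 ± 0.42, adjusted p = 0.0292) than in uninjured cord. The STAT3-CKO SCI call was lost when any of STAT3-CKO SCI animals 186, 531 and 270 or WT uninjured animals 42, 79 and 65 was left out (adjusted p between 0.0533 and 0.114).

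Kcnj10 was at 354, 295 and 291 CPM in STAT3-CKO SCI, at 317, 246, 251 and 221 CPM in WT SCI, and at 725, 459, 462 and 581 CPM in WT uninjured HA IP. All injured animals were below all uninjured ones, with the injured groups overlapping. It was 2.15-fold lower in WT SCI (log2 fold change -1.11 ± 0.23 SE, adjusted p = 0.00178) and 1.78-fold lower in STAT3-CKO SCI (-0.83 ± 0.25, adjusted p = 0.0432). The fall in STAT3-CKO SCI was lost without any 1 of the 7 libraries of its 2 groups (adjusted p between 0.0545 and 0.149) and after thinning (adjusted p = 0.0690). Atp1b2 encodes the β2 subunit of the sodium and potassium pump, an adhesion molecule on glia, and lies at chr11:69599736-69605942 (minus). It averaged 1087 ± 150 CPM in STAT3-CKO SCI (SD, n = 3), 967 ± 303 CPM in WT SCI (SD, n = 4) and 1274 ± 57.8 CPM in WT uninjured HA IP (SD, n = 4). The groups overlapped and neither injured group passed the test against uninjured cord (log2 fold change -0.40 ± 0.25 SE, adjusted p = 0.238 for WT SCI, and -0.23 ± 0.27, adjusted p = 0.665 for STAT3-CKO SCI).

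Slc4a4 encodes the sodium bicarbonate cotransporter NBCe1, which moves bicarbonate across the astrocyte membrane when potassium depolarizes it, and lies at chr5:88886818-89239653 (plus). It was at 275, 308 and 320 CPM in STAT3-CKO SCI, at 230, 141, 138 and 158 CPM in WT SCI, and at 408, 284, 348 and 349 CPM in WT uninjured HA IP. The STAT3-CKO SCI animals overlapped the uninjured ones and lay above all WT SCI animals. Slc4a4 was 2.08-fold lower in WT SCI than in uninjured cord (log2 fold change -1.06 ± 0.23 SE, adjusted p = 0.0026), while STAT3-CKO SCI did not pass the test against uninjured cord (-0.21 ± 0.25, adjusted p = 0.684).

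Aqp4 encodes aquaporin-4, the water channel of astrocyte endfeet, and lies at chr18:15389496-15410982 (minus), where an antisense RNA shares intron but 0 exon bases with it. Its HA IP level was 310, 413 and 644 CPM in STAT3-CKO SCI, 264, 255, 220 and 250 CPM in WT SCI, and 511, 354, 435 and 375 CPM in WT uninjured cord. The WT SCI animals were close together and below all others. The STAT3-CKO SCI animals were spread over more than the whole uninjured range, and the highest of them, animal 270, had the lowest Rn45s share of the injured HA IP libraries (52.2%). Aqp4 was 1.69-fold lower in WT SCI than in uninjured cord (log2 fold change -0.76 ± 0.25 SE, adjusted p = 0.0289). That call was lost without WT uninjured animal 42 (adjusted p = 0.0930), 65 (0.0718) or 154 (0.0508), without WT SCI animal 9843 (0.0605), and after thinning to equal depth (0.0577). STAT3-CKO SCI did not pass the test (log2 fold change 0.12 ± 0.26, adjusted p = 0.831), and without animal 270 the estimate was -0.24. Dag1 encodes dystroglycan, which links laminin around vessels to the dystrophin complex that holds aquaporin-4 and Kir4.1 at the endfoot, and lies at chr9:108204634-108263958 (minus). Dag1 was at 45.6, 55.7 and 53.7 CPM in STAT3-CKO SCI, at 17.6, 92.1, 35.6 and 39.4 CPM in WT SCI, and at 38.3, 34.1, 39.1 and 38.1 CPM in WT uninjured HA IP. The STAT3-CKO SCI animals lay above all uninjured ones, as they did for 17.6% of all genes, and WT SCI animals 9874 and 9935 stood on either side of all others. Neither injured group passed the test (log2 fold change 0.31 ± 0.35 SE, adjusted p = 0.526 for WT SCI, and 0.47 ± 0.37, adjusted p = 0.498 for STAT3-CKO SCI). Without WT SCI animal 9874 the WT SCI estimate was -0.26.

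Between the injured genotypes, 0 of the 8 genes passed the test in HA IP by edgeR and 0 by DESeq2, while 3 (Aqp4, Gja1 and Slc4a4) had an unadjusted p under 0.05. Of all genes, 1.16% were called by edgeR, and more by DESeq2, as given at the end. The fitted change of STAT3-CKO SCI over WT SCI was positive for all 8, except that Dag1 turned to -0.11 without WT SCI animal 9935, with a median log2 fold change of 0.48 beside 0.03 over all genes. The fitted fold of STAT3-CKO SCI over WT SCI was 1.81 for Slc4a4 (log2 fold change 0.85 ± 0.25 SE, adjusted p = 0.0988), 1.84 for Aqp4 (0.88 ± 0.26, adjusted p = 0.107) and 1.85 for Gja1 (0.88 ± 0.28, adjusted p = 0.121). For these 3 genes the groups did not overlap, against 6.12% of all genes that lay apart with STAT3-CKO SCI higher. The other 5 genes overlapped, with log2 fold changes of 0.60 ± 0.41 (SE) for Kcnj16, 0.36 ± 0.26 for Gjb6, 0.28 ± 0.25 for Kcnj10, 0.17 ± 0.27 for Atp1b2 and 0.15 ± 0.37 for Dag1. Without WT SCI animal 9935, the library with the largest Rn45s share (96.2%), 3 genes passed: Kcnj16 (log2 fold change 1.38, adjusted p = 0.0125), Gja1 (1.14, adjusted p = 0.0284) and Slc4a4 (1.05, adjusted p = 0.0319). Leaving out any other library gave no more than these 3. The number of all genes called also moves with 1 library left out, as given at the end, so 1.16% is not the share beside these 3. The share of all genes called without animal 9935 is not given here, and no conclusion is drawn from the count of 3. The authors' deposited table lists false discovery rates of 0.0280 for Slc4a4, 0.0313 for Aqp4 and 0.0495 for Gja1 in this comparison. Beside these values, 2 of the 8 astrocyte marker genes were lower in STAT3-CKO SCI than in WT SCI, Gfap (log2 fold change -2.13 ± 0.32 SE, adjusted p = 0.00247) and S100b (-1.12 ± 0.27, adjusted p = 0.0474). Slc1a3 (1.23 ± 0.35), Fgfr3 (0.65 ± 0.32), Slc1a2 (0.55 ± 0.39) and Aldoc (0.30 ± 0.31) had positive estimates that did not pass. Aldh1l1 (-0.52 ± 0.38) and Sox9 (-0.28 ± 0.30) had negative estimates that did not pass, and the median of the list was 0.012. The Rn45s shares of HA IP were 52.2% to 89.2% in STAT3-CKO SCI and 89.0% to 96.2% in WT SCI. Their part in the 8 estimates was not tested.

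Ratios of partner genes within 1 library do not depend on the scaling of libraries. The Gjb6 to Gja1 ratio in HA IP had a mean log2 of -0.88 ± 0.17 in STAT3-CKO SCI (SD, n = 3), -0.33 ± 0.37 in WT SCI (SD, n = 4) and -0.50 ± 0.27 in WT uninjured cord (SD, n = 4). All STAT3-CKO SCI animals (-1.08 to -0.77) were below all WT SCI animals (-0.64 to 0.20) in this ratio (exact permutation p = 0.0571, adjusted p = 0.193), while WT SCI and WT uninjured cord overlapped. The Kcnj16 to Kcnj10 ratio had a mean log2 of -3.06 ± 0.13, -3.68 ± 0.88 and -2.39 ± 0.26 in the same groups. Each of the 3 STAT3-CKO SCI animals was below all uninjured animals in this ratio, as were 3 of the 4 WT SCI animals, with animal 9935 (-2.44) within the uninjured range. The Aqp4 to Kcnj10 ratio had a mean log2 of 0.48 ± 0.67 in STAT3-CKO SCI, -0.06 ± 0.20 in WT SCI and -0.40 ± 0.23 in WT uninjured cord. Over 9 comparisons of these ratios, the exact permutation tests (two-sided) gave adjusted p between 0.193 and 0.543. The smallest p that 3 against 4 animals allow is 0.0571. After adjustment over the 9 tests, groups of this size could not give a value under 0.05 for any ratio. That none passed was thus fixed by the design, and no conclusion is drawn from it.

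**Figure D2:**
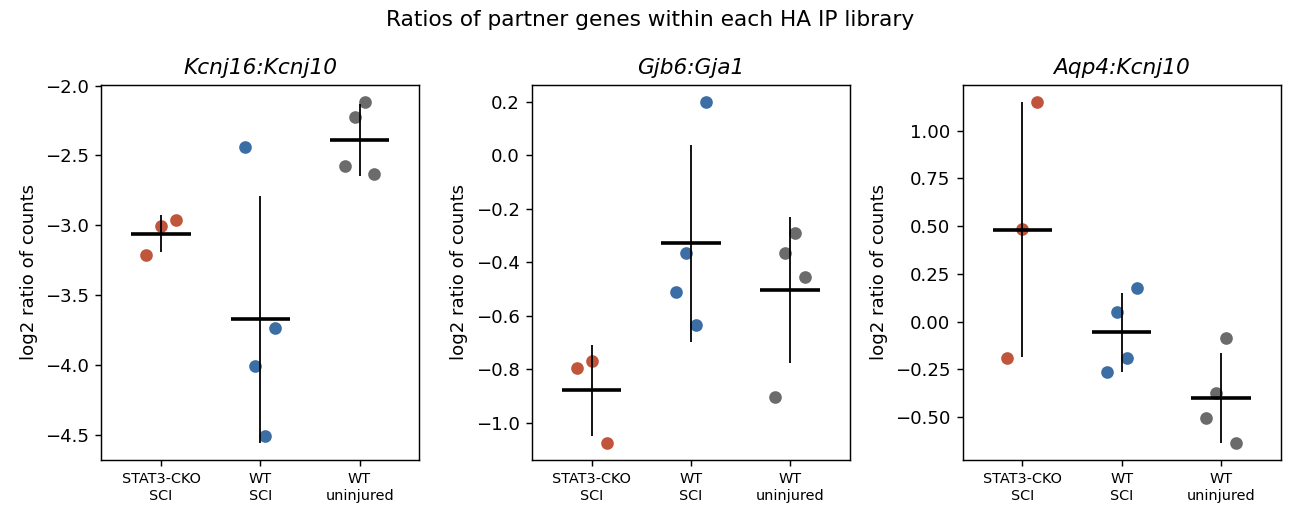
Log2 ratio of counts of 2 partner genes in each HA IP library for STAT3-CKO SCI (n = 3), WT SCI (n = 4) and WT uninjured cord (n = 4), with a bar at the mean and a line of ± 1 SD. The Kcnj16 to Kcnj10 ratio of all STAT3-CKO SCI animals and of 3 of 4 WT SCI animals lies below the uninjured range, and the Gjb6 to Gja1 ratio of all STAT3-CKO SCI animals lies below that of all WT SCI animals, with both injured groups overlapping uninjured cord.

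In the flow-through the picture differed. Levels rose after injury for 5 of the 8 genes in WT SCI (Aqp4, Dag1, Kcnj10, Atp1b2 and Slc4a4) and for 5 of the 8 in STAT3-CKO SCI (Aqp4, Dag1, Gja1, Atp1b2 and Slc4a4), each against WT uninjured cord, and 0 of the 8 fell. Of all 12685 genes, 31.0% were called in either direction and 16.7% upward for WT SCI, and 13.9% and 10.4% for STAT3-CKO SCI. The 5 genes called in WT SCI, and those called in STAT3-CKO SCI other than Gja1, did not overlap the uninjured animals, which held in either direction for 31.3% and 33.9% of all genes. The medians of the 8 genes were 0.98 and 0.96 (log2 fold change), beside -0.09 and -0.000234 over all genes. Aqp4 rose the most, with 129, 134 and 80.5 CPM in STAT3-CKO SCI, 152, 177, 125 and 216 CPM in WT SCI, and 32.9, 25.5, 21.4 and 21.2 CPM in WT uninjured flow-through. Both injured groups were above all uninjured animals and overlapped each other. Aqp4 was 6.65-fold higher in WT SCI (log2 fold change 2.73 ± 0.28 SE, adjusted p = 2.8e-08) and 4.52-fold higher in STAT3-CKO SCI (2.18 ± 0.29, adjusted p = 2.21e-06), and both calls held under every alternative run.

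Atp1b2 was at 428, 371 and 177 CPM in STAT3-CKO SCI, at 463, 528, 387 and 548 CPM in WT SCI, and at 170, 160, 160 and 173 CPM in WT uninjured flow-through. All injured animals were above the uninjured ones, narrowly so for STAT3-CKO SCI animal 270. It was 2.91-fold higher in WT SCI (log2 fold change 1.54 ± 0.27 SE, adjusted p = 8.2e-05) and 1.96-fold higher in STAT3-CKO SCI (0.97 ± 0.28, adjusted p = 0.0198). Slc4a4 was at 28.0, 50.6 and 31.2 CPM in STAT3-CKO SCI, at 59.1, 37.2, 26.6 and 71.2 CPM in WT SCI, and at 15.7, 19.5, 16.3 and 20.6 CPM in WT uninjured flow-through. The injured animals lay above the uninjured ones here too, with a log2 fold change of 1.43 ± 0.32 (SE, adjusted p = 0.00109) in WT SCI and 1.02 ± 0.33 (adjusted p = 0.0339) in STAT3-CKO SCI. Kcnj10 averaged 82.3 ± 27.2 CPM in STAT3-CKO SCI (SD, n = 3), 126 ± 47.7 CPM in WT SCI (SD, n = 4) and 59.6 ± 9.39 CPM in WT uninjured cord (SD, n = 4). It rose in WT SCI (log2 fold change 1.06 ± 0.29 SE, adjusted p = 0.00629) and did not pass in STAT3-CKO SCI (0.45 ± 0.30, adjusted p = 0.371). Dag1 averaged 23.3 ± 4.34 CPM, 22.1 ± 4.50 CPM and 12.2 ± 2.34 CPM in the same groups, with log2 fold changes of 0.89 ± 0.31 (SE, adjusted p = 0.0321) in WT SCI and 0.95 ± 0.32 (adjusted p = 0.0444) in STAT3-CKO SCI.

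The connexins and Kcnj16 had few reads in the flow-through of injured cord. Gja1 was at 25.1, 20.5 and 7.32 CPM in STAT3-CKO SCI, at 11.8, 9.29, 3.69 and 5.45 CPM in WT SCI, where it had 6, 12, 5 and 16 counts, and at 7.84, 7.15, 6.61 and 5.05 CPM in WT uninjured cord. WT SCI overlapped the uninjured animals (log2 fold change 0.06 ± 0.47 SE, adjusted p = 0.941), and the estimate turned to -0.06 with DESeq2's size factors (RLE). STAT3-CKO SCI passed (1.37 ± 0.44, adjusted p = 0.0346) although animal 270 lay within the uninjured range. Gjb6 averaged 11.4 ± 4.12 CPM in STAT3-CKO SCI, 7.41 ± 3.95 CPM in WT SCI and 9.49 ± 0.81 CPM in WT uninjured cord, and Kcnj16 7.62 ± 4.79, 7.53 ± 6.90 and 5.74 ± 1.53 CPM (SD, n = 3, 4 and 4). Neither gene passed in either comparison (adjusted p between 0.518 and 0.789), where the WT SCI libraries held 4, 4, 17 and 18 counts of Gjb6 and 1, 22, 4 and 24 of Kcnj16.

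Apart from Aqp4, the flow-through calls in STAT3-CKO SCI were lost under several alternatives. With RLE scaling, which moved the median of all genes by -0.16 in this comparison and by -0.12 in that of WT SCI, only Aqp4 stayed called in STAT3-CKO SCI, and the calls of all genes split into 1135 higher and 677 lower instead of 1321 and 448. Leaving out 1 library left between 1 and 5 calls there: 1 without STAT3-CKO SCI animal 531 or WT uninjured animal 79, 65 or 154, 2 without STAT3-CKO SCI animal 186 or WT uninjured animal 42, and 3 without STAT3-CKO SCI animal 270. In WT SCI, Dag1 was the sole call lost, under RLE (adjusted p = 0.0577), with no low-count filter (0.100), after thinning (0.367), with only the 2 groups in the fit (0.0727) and without any of 7 libraries (WT uninjured animals 79, 65 and 154, WT SCI animals 9874 and 9843, STAT3-CKO SCI animals 531 and 270). Between the injured genotypes, 0 of the 8 genes were called by edgeR or DESeq2 and 1 (Gja1, log2 fold change 1.31 ± 0.50 SE) had an unadjusted p under 0.05, with 0.118% of all genes called. Astrocyte markers rose in the flow-through as well, 5 of 8 in WT SCI and 4 of 8 in STAT3-CKO SCI. Their sum was 408 to 1033 CPM in STAT3-CKO SCI, 1107 to 1449 CPM in WT SCI and 329 to 550 CPM in WT uninjured flow-through. Neuron genes summed to 913 to 1367 CPM, 344 to 764 CPM and 2692 to 3377 CPM in the same groups, and microglia and macrophage genes to 3145 to 4098 CPM, 2553 to 7746 CPM and 42.6 to 84.9 CPM.

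**Figure D3:**
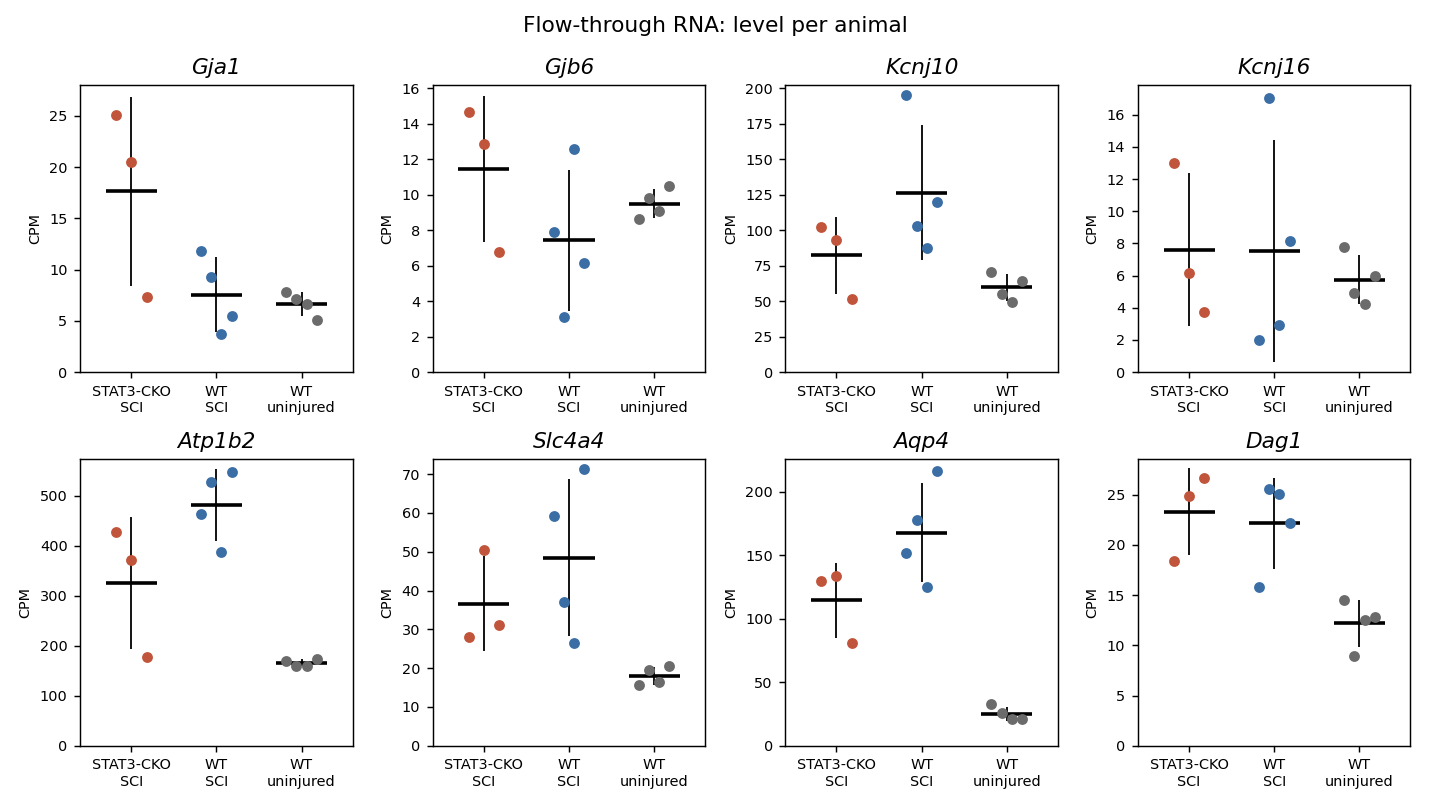
Flow-through level of each gene in CPM (linear axis from 0) by animal, for STAT3-CKO SCI (n = 3), WT SCI (n = 4) and WT uninjured cord (n = 4), with a bar at the mean and a line of ± 1 SD. Aqp4, Atp1b2, Slc4a4 and Dag1 are above every uninjured animal in all injured animals, whereas Gjb6 and Kcnj16 overlap.

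The fold changes with injury differed between the fractions. Whether the change in HA IP differed from that in flow-through was tested as an interaction over all 22 libraries. For WT SCI against WT uninjured cord it did for 6 of the 8 genes, each with the lower change in HA IP, where 4.71% of all 15142 genes were called in either direction and 2.03% downward. The difference of log2 fold changes was -3.30 ± 0.36 (SE) for Aqp4 (adjusted p = 7.9e-07), -2.40 ± 0.64 for Kcnj16 (adjusted p = 0.0246), -2.29 ± 0.38 for Slc4a4 (adjusted p = 0.000363), -1.97 ± 0.37 for Kcnj10 (adjusted p = 0.00106), -1.79 ± 0.50 for Gja1 (adjusted p = 0.0298) and -1.75 ± 0.35 for Atp1b2 (adjusted p = 0.00258). Gjb6 did not pass (-1.22 ± 0.44, adjusted p = 0.115) but did with the animal as a replicate block (adjusted p = 0.0377), and Dag1 did not (-0.39 ± 0.46, adjusted p = 0.761). The Kcnj16 call was lost without WT uninjured animal 79, 65 or 154 or WT SCI animal 9874 or 9596, and the Gja1 call without WT uninjured animal 42, 79, 65 or 154 or WT SCI animal 9874 or 9596 (adjusted p between 0.0594 and 0.198 for both), and both calls were lost after thinning to equal depth, so that 4 to 6 calls were left. For STAT3-CKO SCI against WT uninjured cord 2 genes passed, Gja1 (-2.24 ± 0.48, adjusted p = 0.0136) and Aqp4 (-1.88 ± 0.38, adjusted p = 0.00965), with 0.859% of all genes called and 0.621% downward. With the animal as a replicate block there were 5, with Kcnj10 (adjusted p = 0.0150), Gjb6 (0.0170) and Atp1b2 (0.0360) added. There were 0 after thinning, and 0 without WT uninjured animal 65 or 154 or STAT3-CKO SCI animal 186 or 531. More of all genes were called with the block, as given at the end, so 0.859% is not the share beside the 5.

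For STAT3-CKO SCI against WT SCI, 0 of the 8 genes passed this interaction by edgeR, by DESeq2 or with the block, 3 had an unadjusted p under 0.05 (Aqp4, Slc4a4 and Kcnj10), and 0.0264% of all genes were called. The interaction is relative to the bulk of genes: its median over all genes was 0.26 for WT SCI and 0.15 for STAT3-CKO SCI against uninjured cord, and RLE scaling moved these by -0.20 and -0.13. Under RLE the calls of all genes for WT SCI split into 258 higher and 405 lower instead of 405 and 308, and for STAT3-CKO SCI into 22 and 117 instead of 36 and 94. The 6 and 2 calls among the 8 genes were the same in number.

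**Figure D4:**
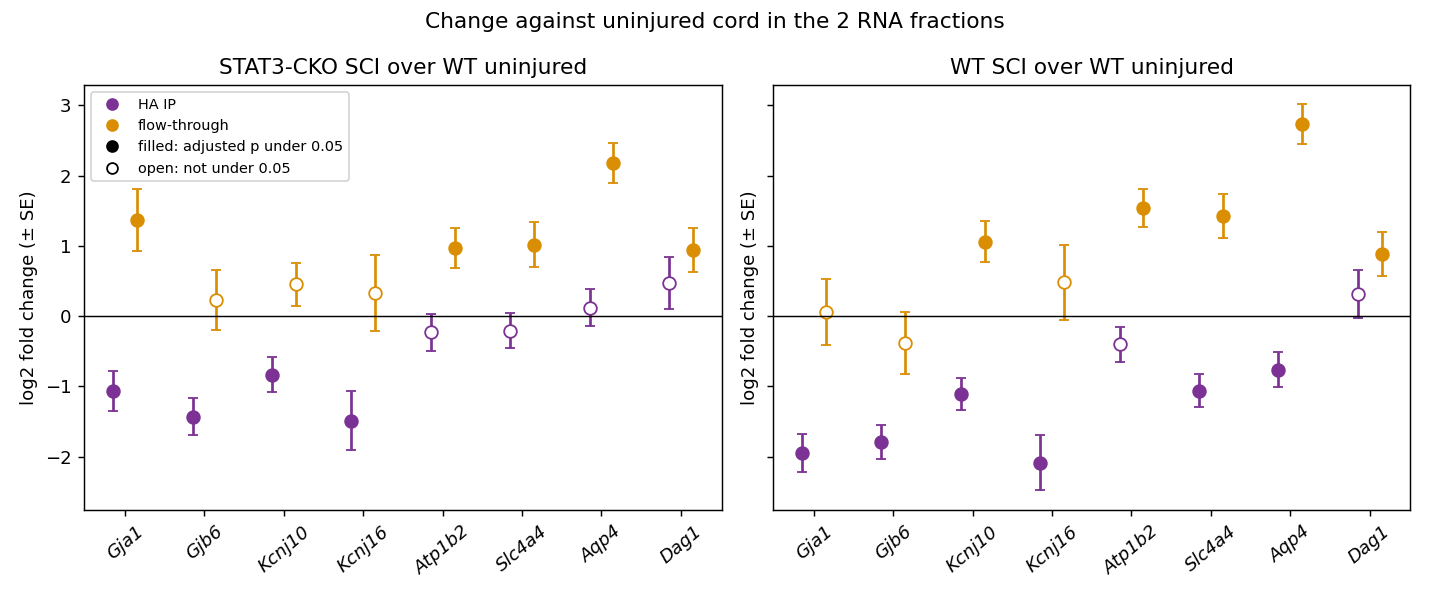
Log2 fold change (± SE) of each gene against WT uninjured cord in HA IP and in flow-through, for STAT3-CKO SCI on the left and WT SCI on the right. Filled points had an adjusted p under 0.05. In WT SCI 6 filled HA IP points lie below 0 and 5 filled flow-through points above 0, with the points of Aqp4 farthest apart.

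Within each condition the HA IP can be set against the flow-through of the same animals. The main fit here, like that of the interaction, held no term for the animal, so its test was not paired. In STAT3-CKO SCI all 8 genes were higher in HA IP, where 11.8% of 12659 genes were called in either direction and 7.12% upward. The log2 fold change was largest for Slc4a4 (3.32 ± 0.33 SE, adjusted p = 2.44e-05), followed by Kcnj16 (2.70 ± 0.41) and Gja1 (2.54 ± 0.39), and smallest for Dag1 (1.41 ± 0.29, adjusted p = 0.00416). Without animal 531 the Dag1 and Atp1b2 calls were lost (adjusted p = 0.102 and 0.0677), which left 6. In WT SCI 5 of the 8 were higher, with 6.25% of 8466 genes called and 4.09% upward: Gja1 (2.84 ± 0.48, adjusted p = 0.00101), Gjb6 (2.42 ± 0.49, adjusted p = 0.00443), Slc4a4 (1.98 ± 0.35, adjusted p = 0.00158), Kcnj10 (1.23 ± 0.31, adjusted p = 0.0190) and Atp1b2 (1.20 ± 0.29, adjusted p = 0.0148). Aqp4, with 0.75 ± 0.27, did not pass (adjusted p = 0.110) but did with the animal as a replicate block (adjusted p = 0.0182). Kcnj16 (1.86 ± 0.64, adjusted p = 0.0898) and Dag1 (1.25 ± 0.45, adjusted p = 0.105) did not pass. Leaving out 1 WT SCI animal left 3 calls (without 9874 or 9843) or 4 (without 9935 or 9596), and a fit of all 22 libraries gave 8. More of all genes were called in that fit, as given at the end, so 6.25% is not the share beside these 8. In WT uninjured cord all 8 were higher in HA IP (50.7% of 14312 genes called, 26.4% upward), by log2 fold changes of 4.93 ± 0.20 for Gja1, 4.53 ± 0.18 for Slc4a4, 4.43 ± 0.22 for Kcnj16, 4.32 ± 0.21 for Aqp4, 3.904 ± 0.14 for Gjb6, 3.49 ± 0.21 for Kcnj10, 3.21 ± 0.13 for Atp1b2 and 1.88 ± 0.17 for Dag1 (SE, adjusted p at most 6.21e-06).

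Animal by animal, the HA IP and flow-through CPM were put on the common scale of the fit of all 22 libraries, which differs from the scales within 1 fraction or 1 condition used above. On it the log2 ratio of HA IP to flow-through of Aqp4 was 1.62, 1.97 and 3.35 in STAT3-CKO SCI, 1.19, 0.88, 1.17 and 0.58 in WT SCI, and 4.11, 4.00, 4.54 and 4.29 in WT uninjured cord. The 3 conditions did not overlap, with WT SCI lowest. For Kcnj10 it was 2.14, 2.01 and 2.85 in STAT3-CKO SCI, 1.08, 1.61, 1.86 and 1.25 in WT SCI, and 3.52, 3.27, 3.42 and 3.32 in WT uninjured cord, again without overlap. For Slc4a4 it was 3.65, 2.95 and 3.71 in STAT3-CKO SCI, 2.35, 2.27, 2.73 and 1.51 in WT SCI, and 4.85, 4.06, 4.61 and 4.23 in WT uninjured cord. These 3 of the 8 genes lay apart in all 3 conditions in this order, as did 51 of 15142 genes (0.337%). The difference between the injured genotypes is the interaction, which did not pass for any of the 8. In the case of Gja1 the injured groups overlapped, with 2.23, 2.06 and 3.86 in STAT3-CKO SCI and 2.88, 2.35, 3.88 and 2.83 in WT SCI, and lay below the 4.86, 4.605, 4.81 and 5.11 of WT uninjured cord. The Kcnj16 ratio of WT SCI animal 9935 (5.27) rests on 1 flow-through count.

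**Figure D5:**
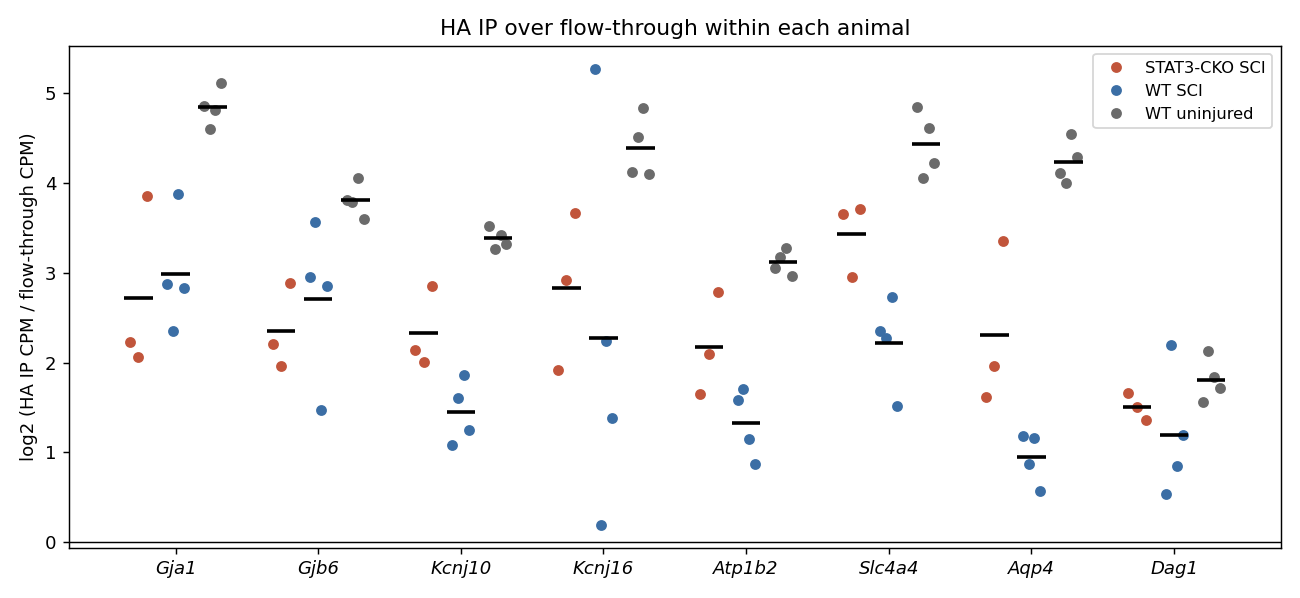
Log2 ratio of HA IP CPM to flow-through CPM within each animal, on the scale of all 22 libraries, by gene, for STAT3-CKO SCI (n = 3), WT SCI (n = 4) and WT uninjured cord (n = 4), with a bar at the mean. Aqp4, Kcnj10 and Slc4a4 lie apart in the 3 conditions, with WT SCI lowest and WT uninjured cord highest, as did 0.337% of all genes.

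Other genes of the same functions moved in both directions. Their counts are read against the shares of all genes called given above, 26.7% in HA IP of WT SCI, 9.78% in HA IP of STAT3-CKO SCI, 31.0% in flow-through of WT SCI and 13.9% in flow-through of STAT3-CKO SCI, each against WT uninjured cord. Of 15 genes of the endfoot dystrophin complex and its partners, 2 rose and 2 fell in HA IP of WT SCI against WT uninjured cord, a share equal to that of all genes (26.7%). Dtna (log2 fold change -0.84 ± 0.24 SE) and Dmd (-0.75 ± 0.26), which encode dystrobrevin and dystrophin, fell. Agrn (1.61 ± 0.46), for the basement membrane proteoglycan agrin, was among those that rose. In STAT3-CKO SCI against uninjured cord 1 of 15 passed, Agrn, which rose (1.57 ± 0.48). In flow-through 3 of 14 rose in WT SCI (Mlc1, Sntb2 and Hepacam) and 1 in STAT3-CKO SCI (Sntb2). The median log2 fold changes of this list in HA IP were 0.04 for WT SCI and 0.20 for STAT3-CKO SCI, beside 0.00 over all genes.

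Of 13 other sodium pump and potassium clearance genes, 4 rose and 6 fell in HA IP of WT SCI, beside 26.7% of all genes called. Slc12a2, the sodium, potassium and chloride cotransporter NKCC1, was at a mean of 43.7 CPM in WT SCI and 15.3 CPM in WT uninjured cord (log2 fold change 1.52 ± 0.27 SE, adjusted p = 0.000352). Kcnj2, the inward rectifier Kir2.1, was at 10.9 CPM in WT SCI and 0.876 CPM in WT uninjured cord (3.60 ± 0.67, adjusted p = 0.000623). In STAT3-CKO SCI against uninjured cord 3 rose, Slc12a2 and Kcnj2 among them, and 1 fell (Fxyd1, a pump regulator, log2 fold change -1.39 ± 0.34 SE). Fxyd1 was also the sole call of this list between the genotypes, lower in STAT3-CKO SCI than in WT SCI (-2.29 ± 0.36, adjusted p = 0.00284). In flow-through 2 rose and 4 fell in WT SCI and 2 rose and 2 fell in STAT3-CKO SCI, with Atp1b1, for the β1 subunit of the pump, lower in both.

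Of 10 other connexin, pannexin and scaffold genes tested in HA IP, 4 rose and 3 were called lower in WT SCI, beside 26.7% of all genes called. The oligodendrocyte connexin genes Gjc3 (log2 fold change 1.56 ± 0.32 SE) and Gjb1 (1.55 ± 0.38) rose, and so did Panx1, a pannexin gene (1.92 ± 0.69), beside the higher myelin marker sums given above. Gjc1 and Gjd2 were called lower, with 0 counts in all WT SCI libraries and means of 0.340 and 0.450 CPM in WT uninjured cord. At such levels the WT SCI HA IP libraries, with 620265 to 2691494 counts outside ribosomal rows, can hold few reads of a gene. In STAT3-CKO SCI 2 rose, Gjc3 and Panx1. In flow-through Panx2 fell in WT SCI and in STAT3-CKO SCI. Gjd2 was also called lower in WT SCI there, with 0 counts in all WT SCI libraries and a mean of 2.24 CPM in WT uninjured cord. The WT SCI flow-through libraries, with 91626 to 615302 counts outside ribosomal rows, can hold few reads of such a gene. Of 12 other bicarbonate, proton and lactate transport genes, 1 rose and 2 fell in HA IP of WT SCI, a share close to that of all genes (26.7%). The lactate transporter gene Slc16a3 rose (4.05 ± 0.93 SE), and the carbonic anhydrase genes Car2 (-1.09 ± 0.28) and Car14 (-1.28 ± 0.34) fell. In STAT3-CKO SCI Slc16a3 rose, and Car14 was higher than in WT SCI (1.55 ± 0.36, adjusted p = 0.0411). In flow-through Slc16a3 rose in both injured groups, and Car2 was among the 2 genes that fell in WT SCI. Of 7 other aquaporin genes, 3 had enough reads to be tested in HA IP, and by edgeR 0 were called in the 3 HA IP comparisons. Over the 4 non-aquaporin lists the medians in HA IP of WT SCI lay between -0.40 and 0.38, beside -1.08 for the 8 genes.

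The genes whose HA IP pattern was most like each of the 8 were sought among 4048 genes with a mean log2 CPM of at least 3, by the root-mean-square difference of gene-centred log2 CPM over the 11 HA IP libraries. The nearest pairs were Atp1b2 with Rab1 (0.15), Gjb6 with Tuba4a (0.16), Kcnj10 with Abr (0.18) and Aqp4 with Papola (0.18). Next came Dag1 with Hnrnpul1 (0.20), Slc4a4 with Fgf1 (0.21), Gja1 with Ndrg3 (0.23) and Kcnj16 with Oat (0.37). Within the 8, Aqp4 and Slc4a4 were the closest pair (0.28), then Slc4a4 and Kcnj10 (0.33) and Gja1 and Gjb6 (0.33), and Dag1 and Kcnj16 the farthest (1.47). These values are descriptions over libraries that share the same depth and Rn45s differences.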

How the data were processed

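Ribosome-associated (HA IP) and flow-through RNA of 11 mice was sequenced as 22 libraries in 6 groups of 3 or 4. Per the labels' protocols, libraries were made from 5 ng of RNA, and 300 ng of cDNA went into 10 PCR cycles. Reads were processed with CASAVA 1.8.2 and edgeR against mm10, per the submitters' processing notes. Which aligner, counter and strand setting were used is not given in the sources used here. Without strand, reads of a gene and an antisense partner cannot be told apart. The 5 deposited tables hold raw counts of 24060 gene rows per library, with the authors' log2 fold changes and FDR values (p-values adjusted by the authors) for their own comparisons. All 529320 counts that stand in more than 1 table were compared and 0 differed, and 124 per-sample columns were not used. No 2 libraries of a group were alike within sampling noise (lowest chi-square per degree of freedom 4.68).

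Counts were fitted with edgeR 4.0.16 (limma 3.58.1, R 4.3.3) by the quasi-likelihood test, with TMM scaling and edgeR's filter on low counts, 1 fit over the 3 groups of a fraction, 1 fit per condition for HA IP against flow-through, and 1 fit over all 22 libraries for the interaction. P-values were adjusted over all genes by Benjamini and Hochberg, with a threshold of 0.05. Within 1 fraction they measure the spread between animals. In the fits that hold both fractions they measure the spread between libraries, since the main fit treats the 2 libraries of an animal as independent. The test was checked on simulated counts, in which only chosen genes differed between groups. These counts had no built-in difference of Rn45s share between groups, so they cannot check the test in that respect. CPM are counts scaled to a common, TMM-adjusted library size, and log2 CPM for likeness use a prior count of 2. Exact permutation tests were run in Python 3.11 with scipy 1.17.1, and figures drawn with matplotlib 3.10.9. Levels per kilobase use the transcript that GENCODE vM21 matches to RefSeq, and for Gjb6 its longest protein-coding transcript.

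HA IP and flow-through libraries of the same animal are named by the same animal number in the titles, and their deviations from the group means were correlated at 0.319 to 0.679 in all 11 animals, so the animal was used as a block in an alternative. The other alternatives were RLE scaling, DESeq2 1.42.0, no filter on low counts, removal of ribosomal RNA rows, thinning of counts to equal depth, only the 2 groups compared in the fit, all 22 libraries in 1 fit, and leaving out each library. The ratios of partner genes without each animal were added after seeing the data. The genes, the lists and the tests were chosen with earlier results of these data known. Named were the 8 genes, Stat3, up to 4 called genes of each list by smallest p, and the 2 genes most like each of the 8. Panx1 and other list genes named for counts of 5 or fewer were chosen after their values were seen. Some members of the lists, counted in their totals, are not reported here by name.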

Additional observations from a re-analysis of the deposited data

Results flagged for a closer look

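In HA IP of WT SCI, Kcnj16 of animal 9935 was at 58.3 CPM, while the next animal was at 16.6 CPM and the lowest at 10.99 CPM, a gap that passes Dixon's critical value (the gap is 0.882 of the range). It was the sole flag in 32 checks, 1 for each gene in each group of 4 animals, where chance passes about 1 in 20. So 1 flag is no more than chance gives. The same animal had the largest Rn45s share of the HA IP libraries (96.2%). Whether that share bears on Kcnj16 was not tested.

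The change with injury differed between HA IP and flow-through, by the interaction test of edgeR, for 6 genes in WT SCI against WT uninjured cord. The differences were -3.30 for Aqp4, -2.40 for Kcnj16, -2.29 for Slc4a4, -1.97 for Kcnj10, -1.79 for Gja1 and -1.75 for Atp1b2, on the log2 scale. In STAT3-CKO SCI against WT uninjured cord it differed for Gja1 (-2.24) and Aqp4 (-1.88). A negative value means a lower change in HA IP. The part of Rn45s shares and of the low flow-through counts of WT SCI in these differences was not tested.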

How the results depend on the processing

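Of 1544 recomputed values of single genes and ratios, 1406 kept their direction and side of the threshold, 98 lost and 15 gained a call, and 25 changed sign. Those of ratios could change in sign only, as groups of this size with 1 animal left out cannot give a permutation p under 0.05. Among the 8 genes the number called moved from 5 to 1 with RLE scaling, 3 without ribosomal rows and 2 after thinning in flow-through of STAT3-CKO SCI against WT uninjured cord, and from 5 to 8 in WT SCI HA IP against flow-through with all 22 libraries in 1 fit. For the interaction of STAT3-CKO SCI against WT uninjured cord it moved from 2 to 0 after thinning and to 5 with the animal as replicate block. With 1 library left out, these counts ranged over 1 to 5, 3 to 4 and 0 to 2, and in HA IP over 0 to 3 for STAT3-CKO SCI against WT SCI and 1 to 4 for STAT3-CKO SCI against WT uninjured cord.

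Numbers of called genes, with the value of the main setting last, were as follows. In HA IP, STAT3-CKO SCI against WT SCI had 917 with DESeq2, 36 with 2 groups fitted and 39 to 343 with 1 library left out (171), and against WT uninjured cord 2254, 3585 and 848 to 1905, with 795 after thinning (1444). In flow-through, STAT3-CKO SCI against WT SCI had 213 with DESeq2, 131 without the filter, 7 after thinning, 4 with 2 groups fitted and 2 to 29 with 1 library left out (15). Against WT uninjured cord it had 517 after thinning and 2751 with 2 groups fitted (1769), and WT SCI had 1520 after thinning (3933). HA IP against flow-through gave 3369 in WT uninjured cord with all 22 libraries in 1 fit (7250). In WT SCI it gave 948 with DESeq2, 1706 with all 22 libraries, 1096 with the replicate block and 166 to 292 with 1 animal left out (529), and in STAT3-CKO SCI 3105 with the block and 292 to 1486 with 1 animal left out (1496). The interaction gave 1184 with DESeq2, 231 after thinning, 1934 with the block and 320 to 866 with 1 library left out for WT SCI against WT uninjured cord (713), then 393, 44, 704 and 19 to 190 for STAT3-CKO SCI against WT uninjured cord (130). For STAT3-CKO SCI against WT SCI it gave 1 with RLE, 13 with DESeq2, 0 after thinning, 31 with the block and 0 to 6 with 1 library left out (4).

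Changes of sign were all in differences that did not pass the test. Gja1 in flow-through of WT SCI against WT uninjured cord (0.06) was at -0.056 with RLE, -0.051 with DESeq2, -0.039 without the filter, -0.000907 without ribosomal rows and -0.020 with 2 groups fitted. After thinning, STAT3-CKO SCI against WT SCI gave 0.92 for Kcnj16 in flow-through, and -0.35 for Dag1, -0.26 for Kcnj16 and 0.00144 for Gja1 in the interaction. With 1 library left out, Aqp4 ranged from -0.24 to 0.33 in HA IP of STAT3-CKO SCI against WT uninjured cord. Dag1 ranged from -0.26 to 0.57 in HA IP of WT SCI against WT uninjured cord, and in STAT3-CKO SCI against WT SCI from -0.11 to 0.73 in HA IP, -0.084 to 0.20 in flow-through and -0.080 to 0.60 in the interaction. In flow-through, Gja1 ranged from -0.14 to 0.28 (WT SCI) and Gjb6 from -0.00128 to 0.46 (STAT3-CKO SCI) against WT uninjured cord. Kcnj16 there ranged from -0.15 to 0.77 (WT SCI) and -0.28 to 0.64 (STAT3-CKO SCI), and from -0.74 to 0.48 for STAT3-CKO SCI against WT SCI. The Gjb6 to Gja1 ratio of WT SCI against WT uninjured cord ranged from -0.000762 to 0.28. The cause was not tested in any of these. The paired fit changed no call of the 8 genes beyond those given with the results.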
